A study of Homo sapiens with 16 samples.

Results

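The direct difference between the compounds 5G6 and 7F8 after 4 h was read from 4 RNA libraries of A549 cells, 2 per compound, out of 16 libraries in the whole series. A549 is an established human lung adenocarcinoma line, and all cells here, controls included, overexpressed CD63-Nluc, in which a tetraspanin of exosome membranes is joined to a luciferase. The 4 libraries were those titled for 5G6 at 4 h and for 7F8 at 4 h. The other libraries came from the same cells given the solvent DMSO for 4 h or 48 h, the compound 6D7 for 4 h or 48 h, or 5G6 or 7F8 for 48 h. Each of these 8 groups held 2 libraries, described for the series as biological replicates, and 4 µM is printed for each treatment, DMSO included. The compounds are known here by code names only. Expression was measured as TPM (a relative transcript level, corrected for gene length), summed by gene name, without chromosome M, and rescaled to the same total in each library. Differences between groups are on the log2(TPM + 1) scale, 5G6 minus 7F8 unless another group is named, and this scale understates the change of weakly expressed genes.

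SREBPs, which the title of the series names beside AMPK and exosomes, are transcription factors held in the endoplasmic reticulum membrane while sterols are plentiful; when sterols fall, SCAP escorts them to the Golgi, proteases free them, and they switch on the genes of cholesterol synthesis, uptake and fatty acid synthesis. INSIG proteins hold SCAP back, and AMPK, the kinase that senses low energy, restrains lipid synthesis. NF-kB is a family of dimeric factors kept inactive by IkB proteins; once freed it switches on chemokines, adhesion molecules and its own inhibitors, so its targets serve as a readout of inflammatory signalling in epithelial cells.

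The 4 libraries held 6.39 to 8.86 aligned gigabases, and 13378 to 14386 genes had a TPM of at least 1. The 9 markers of A549 epithelium, such as KRT8 and ALDH1A1, summed to 19158 to 20298 TPM. Of 11 markers of blood, macrophage, endothelium and fibroblasts, 9 were below 1 TPM in all 4 libraries. The exceptions, COL1A1 and CD14, were higher in replicate 1 of both compounds (14.6 and 10.8 TPM with 5G6, 18.3 and 8.46 TPM with 7F8) than in replicate 2 (4.44 and 3.27 TPM, 2.79 and 3.23 TPM), and their part in the results was not tested. In bulk RNA, fewer cells of a type and less RNA per cell cannot be told apart. Chromosome M held 18.9% to 32.5% of TPM in the 4 libraries before it was dropped. The median difference over all 15958 tested genes was 0.22. Median-of-ratios scaling, which brings the libraries to a common centre over genes, made it 0.03. The TPM scale therefore puts most genes slightly higher with 5G6. Counts of list members without overlap between the compounds at 4 h are given on both scales. Counts and the positions of single genes, against DMSO and at 48 h, are on the TPM scale only, and some may not hold after scaling. On that scale the median difference from DMSO at 4 h over all genes was 0.11 with 5G6 and -0.11 with 7F8. The 7F8 libraries also differed from each other: CXCL8, a neutrophil-attracting chemokine, stood at 156 and 1502 TPM in replicates 1 and 2, and the source of that spread was not tested.

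A single gene passed the test. ELOVL6, the elongase that lengthens palmitate to stearate, was higher with 5G6. Its level was 42.0 and 36.0 TPM in the 5G6 libraries, 4.72 and 6.31 TPM in the 7F8 libraries, and 11.9 and 15.3 TPM with DMSO at 4 h. All 3 groups were apart, with DMSO in between. The difference was 2.62 ± 0.29 on the log2 scale (SE, n = 2 libraries per group; limma, Benjamini-Hochberg adjusted p = 0.0210, 95% interval 1.98 to 3.26), and the 5G6 mean TPM was 7.07 times the 7F8 mean. The gene lies on chromosome 4 from 110045851 to 110199199 on the minus strand in GRCh38. Without 5G6 replicate 1, without 5G6 replicate 2, or without 7F8 replicate 2 its adjusted p was 0.192, 0.137 and 0.0516, with differences of 2.52, 2.73 and 2.80.

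That call is 1 of 15958 genes higher with 5G6 (0.00627%), against 0 higher with 7F8 (0%). At an unadjusted p below 0.05 there were 1436 genes higher with 5G6 (9%) and 165 higher with 7F8 (1.03%). An exact permutation test of 2 against 2 libraries cannot go below p = 0.333 (two-sided), so the evidence below is given as the value in each library and as counts of genes whose 2 + 2 libraries did not overlap. Over all tested genes, both 5G6 libraries were above both 7F8 libraries in 5357 genes (33.6%) and both 7F8 libraries were above in 1016 (6.37%). After median-of-ratios scaling these counts were 2986 (18.7%) and 2628 (16.5%). A gene list is described by the same counts and its median, beside these shares.

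Promoter sequences are shown for the genes whose regulators bear on the groups compared below. They are RefSeq sequences (GRCh38.p14), read along the gene's strand, covering the 150 bases before the gene's start, with the searched motif in capitals. SREBF2, which encodes SREBP2, the main activator of sterol synthesis genes, holds the sterol regulatory element motif TCACNCCAC in its own promoter (chr22:41832955-41833104, plus strand), with its first base 133 bases before the start. The chemokine gene CXCL5 (chr4:73998678-73998827, minus strand) and TNFAIP2, a TNF-inducible gene (chr14:103123311-103123460, plus strand), hold the NF-kB motif GGNNTTTCC, 90 and 97 bases before the start. Their values are given with their groups.
SREBF2: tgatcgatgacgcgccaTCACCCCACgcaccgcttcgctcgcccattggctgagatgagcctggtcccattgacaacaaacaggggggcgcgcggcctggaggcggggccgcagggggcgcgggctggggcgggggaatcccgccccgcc
CXCL5: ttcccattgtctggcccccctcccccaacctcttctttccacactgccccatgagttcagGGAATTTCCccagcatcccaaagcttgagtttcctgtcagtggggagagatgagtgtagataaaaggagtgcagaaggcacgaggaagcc
TNFAIP2: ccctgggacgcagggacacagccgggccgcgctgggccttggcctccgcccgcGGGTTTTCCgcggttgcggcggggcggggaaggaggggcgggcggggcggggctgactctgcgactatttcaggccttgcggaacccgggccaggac

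Genes of the mevalonate pathway, which builds the isoprenoid precursors of cholesterol, were higher with 5G6. Of 9 tested members, 8 had both 5G6 libraries above both 7F8 libraries and 0 the reverse, where all genes gave 33.6% and 6.37%. After median-of-ratios scaling it was 7 and 0, against 18.7% and 16.5% of all genes. The list's median difference was 1.55 (1.32 after scaling), against 0.22 (0.03) over all genes, and 6 members had an unadjusted p below 0.05. The median level on the log2 scale was 7.15 and 6.66 in the 5G6 libraries, 5.45 and 5.71 in the 7F8 libraries and 5.53 and 5.71 with DMSO, so the 7F8 libraries lay at the DMSO level.

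HMGCS1, which makes HMG-CoA, stood at 306 and 298 TPM with 5G6, 42.5 and 69.2 TPM with 7F8 and 54.8 and 76.5 TPM with DMSO. The 5G6 libraries lay apart from the rest, while 7F8 and DMSO overlapped. Its difference was 2.45 ± 0.59 (SE, n = 2 per group; limma adjusted p = 0.286, 95% interval 1.17 to 3.74). MVK, mevalonate kinase, stood at 90.6 and 49.3 TPM with 5G6 and 17.7 and 16.1 TPM with 7F8, just under the 18.1 and 19.1 TPM of DMSO. MVD, the decarboxylase that ends the mevalonate steps, stood at 219 and 115 TPM with 5G6, 44.1 and 51.3 TPM with 7F8 and 28.7 and 40.7 TPM with DMSO, where both compounds were above DMSO and 5G6 further. GGPS1, the branch enzyme toward protein prenylation, overlapped between the compounds (21.2 and 21.5 TPM with 5G6, 18.0 and 29.0 TPM with 7F8), with a difference of -0.10 and a 95% interval of -0.64 to 0.44.

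The steps from squalene to cholesterol behaved alike, with 11 of 12 tested members higher with 5G6 without overlap and 0 the reverse, on either scale. This compares with 33.6% and 6.37% of all genes, and 18.7% and 16.5% after scaling. The median difference was 1.49 (1.26 after scaling), and 11 members had an unadjusted p below 0.05. MSMO1, the sterol C4-methyl oxidase, stood at 267 and 193 TPM with 5G6, 34.5 and 51.5 TPM with 7F8 and 41.4 and 55.1 TPM with DMSO. Its difference was 2.40 ± 0.49 (limma adjusted p = 0.221). CYP51A1, lanosterol demethylase, stood at 211 and 156 TPM with 5G6, 46.4 and 52.3 TPM with 7F8 and 49.1 and 51.6 TPM with DMSO. In both genes the 7F8 and DMSO libraries overlapped. TM7SF2, a sterol reductase, was the member that overlapped between the compounds (44.5 and 15.6 TPM with 5G6, 28.7 and 29.1 TPM with 7F8).

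Set against DMSO, the sterol lists differed in position between the compounds. Both 5G6 libraries were above both DMSO libraries in 7 of 9 mevalonate and 11 of 12 later members (3611 of all genes, 22.6%), and in 0 of either list below them (1260, 7.9%). Both 7F8 libraries were above DMSO in 1 and 2 members (1608, 10.1%) and below in 2 and 2 (3742, 23.4%). The median differences from DMSO were 1.79 and 1.46 with 5G6, and -0.00 and -0.07 with 7F8, and both compounds share the same DMSO libraries.

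Among the SREBP factors and their regulators, 5 of 11 members were higher with 5G6 without overlap and 2 with 7F8 (3 and 3 after scaling), close to the shares of all genes. INSIG1, the sterol-sensing retainer of SCAP and itself an SREBP target, was the exception in size: 296 and 241 TPM with 5G6, 37.2 and 101 TPM with 7F8 and 29.2 and 49.1 TPM with DMSO. SREBF1, encoding SREBP1, stood at 186 and 143 TPM with 5G6, 111 and 63.9 TPM with 7F8 and 156 and 123 TPM with DMSO, so that 7F8 lay below DMSO and 5G6 overlapped it. SREBF2 stood at 95.8 and 76.7 TPM with 5G6, 72.7 and 38.5 TPM with 7F8 and 61.3 and 39.7 TPM with DMSO, apart between the compounds on the TPM scale and overlapping after scaling. SCAP itself was 31.0 and 32.1 TPM with 5G6 and 41.0 and 32.2 TPM with 7F8.

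The motif of the SREBF2 promoter was searched on both strands of all RefSeq promoters, 250 bases before to 50 after each start, and it was found in 1.45% of the 11264 tested genes that have one. It was present in 0 of 7 mevalonate and 0 of 9 squalene-to-cholesterol promoters, in 1 of 9 among the regulators (SREBF2) and in 1 of 18 among fatty acid genes (ACSL1). No match says only that these letters are not in that window.

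Sterol handling outside synthesis gave 8 of 13 members higher with 5G6 and 0 with 7F8 (7 and 1 after scaling), with a median of 0.52 (0.29). In all genes the shares were 33.6% and 6.37% (18.7% and 16.5%). STARD4, a carrier of cholesterol between membranes, stood at 36.9 and 35.0 TPM with 5G6, 7.89 and 11.6 TPM with 7F8 and 13.1 and 15.3 TPM with DMSO. NPC1, which exports cholesterol from lysosomes, stood at 71.1 and 60.4 TPM with 5G6, 38.4 and 26.1 TPM with 7F8 and 25.7 and 20.6 TPM with DMSO. For NPC1 both compounds were above DMSO on the TPM scale, whereas for STARD4 they lay on either side of it. After scaling, the STARD4 levels with 7F8 overlapped DMSO. ABCA1, the cholesterol exporter driven by LXR, was weak in the libraries compared at 4 h (0.831 and 2.33 TPM with 5G6, 0.837 and 1.18 TPM with 7F8). Its difference of 0.30 had a 95% interval of -2.21 to 2.81.

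Fatty acid synthesis genes were higher with 5G6 in 16 of 21 members without overlap and with 7F8 in 0 (11 and 1 after scaling). This compares with 33.6% and 6.37% of all genes (18.7% and 16.5%). The median was 0.70 (0.48), and 1.07 without 5G6 replicate 2. FASN, the fatty acid synthase, stood at 436 and 319 TPM with 5G6, 92.7 and 65.9 TPM with 7F8 and 109 and 77.4 TPM with DMSO. The 5G6 libraries stood above all others, and the difference was 2.24 ± 0.48 (limma adjusted p = 0.238). SCD, which introduces the double bond of oleate, stood at 1737 and 995 TPM with 5G6 and 424 and 333 TPM with 7F8, a wider spread within 5G6 but still no overlap. ACACA, which makes the malonyl-CoA that FASN extends, stood at 49.4 and 52.6 TPM with 5G6, 18.5 and 15.5 TPM with 7F8 and 31.5 and 20.9 TPM with DMSO. PNPLA3, a lipid droplet acyltransferase and lipase, was at 5.48 and 5.24 TPM with 5G6 against 0.622 and 0.920 TPM with 7F8. Genes of this list without separation on the TPM scale included ELOVL1 (7F8 above after scaling), with 127 and 137 TPM and 132 and 113 TPM and a 95% interval of -0.26 to 0.49 for the difference.

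In triglyceride synthesis and lipid droplets, 4 of 13 members were higher with 5G6 and 3 with 7F8 (3 and 3 after scaling). All genes gave 33.6% and 6.37% (18.7% and 16.5%), so the scaled counts were near those shares. LPIN1, the phosphatidate phosphatase that makes diacylglycerol, stood at 72.2 and 86.4 TPM with 5G6, 10.3 and 17.4 TPM with 7F8 and 12.6 and 15.96 TPM with DMSO. It differed by 2.47 ± 0.36 (limma adjusted p = 0.110, 95% interval 1.68 to 3.27). PNPLA2, the lipase that starts triglyceride breakdown, had the opposite order: 68.9 and 62.4 TPM with 5G6, 168 and 149 TPM with 7F8 and 78.6 and 70.5 TPM with DMSO. Both 7F8 libraries stood above DMSO and both 5G6 libraries below it, and the difference was -1.26 ± 0.23 (limma adjusted p = 0.154). G0S2, the inhibitor of that lipase, was also higher with 7F8 (18.7 and 18.0 TPM) than with 5G6 (10.7 and 7.60 TPM) or DMSO (5.05 and 7.15 TPM).

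**Figure D1:**
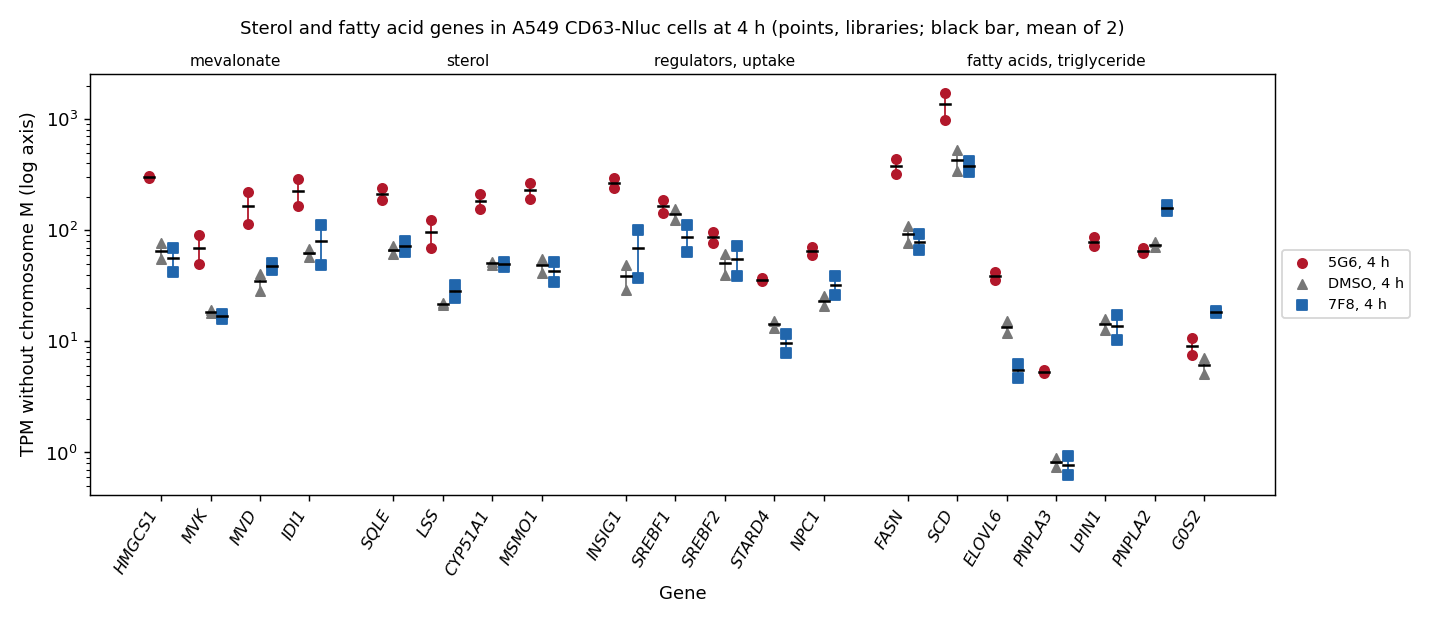
TPM without chromosome M (log axis) of 20 sterol, fatty acid and triglyceride genes in each 5G6, DMSO and 7F8 library at 4 h; points are libraries, black bars the mean of 2. The 5G6 libraries stand apart above 7F8 in every gene shown except PNPLA2 and G0S2, where 7F8 is above, and the 7F8 libraries of HMGCS1, SQLE and MSMO1 overlap DMSO.

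Inflammatory genes had the opposite order, and here 7F8 was higher. Of 25 NF-kB subunits and feedback genes, 11 had both 7F8 libraries above both 5G6 libraries and 2 the reverse (13 and 1 after scaling), where all genes gave 6.37% and 33.6% (16.5% and 18.7%). The median difference was -0.69 (-0.90 after scaling), and 9 members had an unadjusted p below 0.05, each higher with 7F8. The median of the differences moved to -0.27 without 7F8 replicate 2 and to -0.24 without 5G6 replicate 1. The median level on the log2 scale was 5.34 and 5.73 with 5G6, 5.79 and 6.09 with 7F8 and 5.08 and 5.15 with DMSO, so both compounds stood above DMSO. Both libraries of 5G6 exceeded DMSO in 14 of 25 members (22.6% of all genes) and both of 7F8 in 17 (10.1% of all genes), and 0 members lay below DMSO with either compound (7.9% and 23.4% of all genes).

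By subunit, RELB, the partner of the noncanonical pathway, stood at 98.7 and 119 TPM with 7F8, 45.4 and 51.9 TPM with 5G6 and 33.1 and 44.9 TPM with DMSO. NFKB2, the precursor of p52, stood at 193 and 165 TPM with 7F8, 88.1 and 110 TPM with 5G6 and 68.1 and 80.7 TPM with DMSO. The order 7F8, 5G6, DMSO held for both genes without overlap. RELA, the activating subunit p65, overlapped between the compounds (74.5 and 78.1 TPM with 5G6, 94.97 and 67.1 TPM with 7F8), with an interval of -0.70 to 0.57. REL, another activating subunit, ran the other way, at 4.90 and 9.05 TPM with 5G6 and 3.59 and 2.598 TPM with 7F8.

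Among the targets, TNFAIP2 stood at 683 and 1052 TPM with 7F8, 246 and 277 TPM with 5G6 and 233 and 183 TPM with DMSO. Its difference was -1.70 ± 0.28 (limma adjusted p = 0.141, 95% interval -2.31 to -1.08). ICAM1, an adhesion molecule for leukocytes, stood at 34.2 and 61.3 TPM with 7F8, 13.8 and 14.9 TPM with 5G6 and 10.54 and 11.5 TPM with DMSO. SOD2, the mitochondrial superoxide dismutase, stood at 815 and 886 TPM with 7F8, 392 and 383 TPM with 5G6 and 189 and 211 TPM with DMSO, the clearest case of 3 levels with little spread inside each group. NFKBIA, which encodes the inhibitor IkB-alpha, stood at 244 and 849 TPM with 7F8, 150 and 229 TPM with 5G6 and 152 and 163 TPM with DMSO; 7F8 did not overlap 5G6 or DMSO, with replicate 2 far above replicate 1, and 5G6 and DMSO overlapped. TNFAIP3, the feedback enzyme A20, overlapped between the compounds (41.6 and 81.2 TPM with 7F8, 25.6 and 49.1 TPM with 5G6), and both exceeded the 22.4 and 18.4 TPM of DMSO.

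Of 21 chemokines and interleukins, 6 were higher with 7F8 without overlap and 1 with 5G6 (9 and 1 after scaling). The same shares of all genes were 6.37% and 33.6% (16.5% and 18.7%). The list's median was -0.39 (-0.53 after scaling, and -0.11 without 7F8 replicate 2). CXCL5 had close replicates: 1376 and 1814 TPM with 7F8, 627 and 713 TPM with 5G6 and 523 and 530 TPM with DMSO, a difference of -1.24 ± 0.20 (limma adjusted p = 0.141, 95% interval -1.68 to -0.80). The neutrophil chemokines CXCL1 and CXCL3 and the lymphocyte chemokine CCL20 depended on 1 library. CXCL1 stood at 242 and 1579 TPM with 7F8 against 146 and 256 TPM with 5G6, CXCL3 at 51.8 and 528 TPM against 27.4 and 84.0 TPM, and CCL20 at 27.3 and 487 TPM against 20.6 and 72.5 TPM. In each of them 7F8 replicate 1 lay inside the 5G6 range and replicate 2 far above it. CXCL1, CXCL2 and CXCL3 are close copies, so reads may be split between them. IL6 did not separate (18.7 and 21.3 TPM with 5G6, 15.4 and 19.8 TPM with 7F8; interval -0.70 to 1.07). LIF, a cytokine of the same receptor family, was the member higher with 5G6, at 52.9 and 91.0 TPM against 45.8 and 33.1 TPM.

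The NF-kB motif shown in the CXCL5 and TNFAIP2 promoters was present in 8.95% of the 11264 tested genes with a RefSeq promoter, in 9 of 16 chemokine and interleukin genes (56.3%) and in 14 of 21 NF-kB subunits and feedback genes (66.7%). Of 23 genes of both lists with the motif, 8 were higher with 7F8 without overlap and 2 with 5G6, and of 14 without it, 5 and 0. The median differences were -0.70 and -0.39, and whether the sets differ was not tested.

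Genes outside both inflammatory lists that share the 7F8-high order included CEBPB, a transcription factor of inflammatory and fat cell genes, at 401 and 404 TPM with 7F8, 214 and 238 TPM with 5G6 and 231 and 218 TPM with DMSO. PLAUR, the urokinase receptor, stood at 182 and 253 TPM against 94.2 and 111 TPM with 5G6. JUNB, an AP-1 subunit, stood at 242 and 321 TPM with 7F8, 122 and 139 TPM with 5G6 and 212 and 120 TPM with DMSO. Its list of immediate early genes did not share that order as a whole. Of 26 members, 7 were higher with 5G6 and 1 with 7F8 (5 and 2 after scaling), with a median of 0.27 (0.04). The shares of all genes were 33.6% and 6.37% (18.7% and 16.5%). SQSTM1, the autophagy receptor p62, stood at 2012 and 2371 TPM with 7F8, 1218 and 1490 TPM with 5G6 and 787 and 1132 TPM with DMSO. MT2A, a metal-binding metallothionein, stood at 4984 and 5061 TPM with 7F8 and 2583 and 1179 TPM with 5G6. None of the 5 passed the test.

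**Figure D2:**
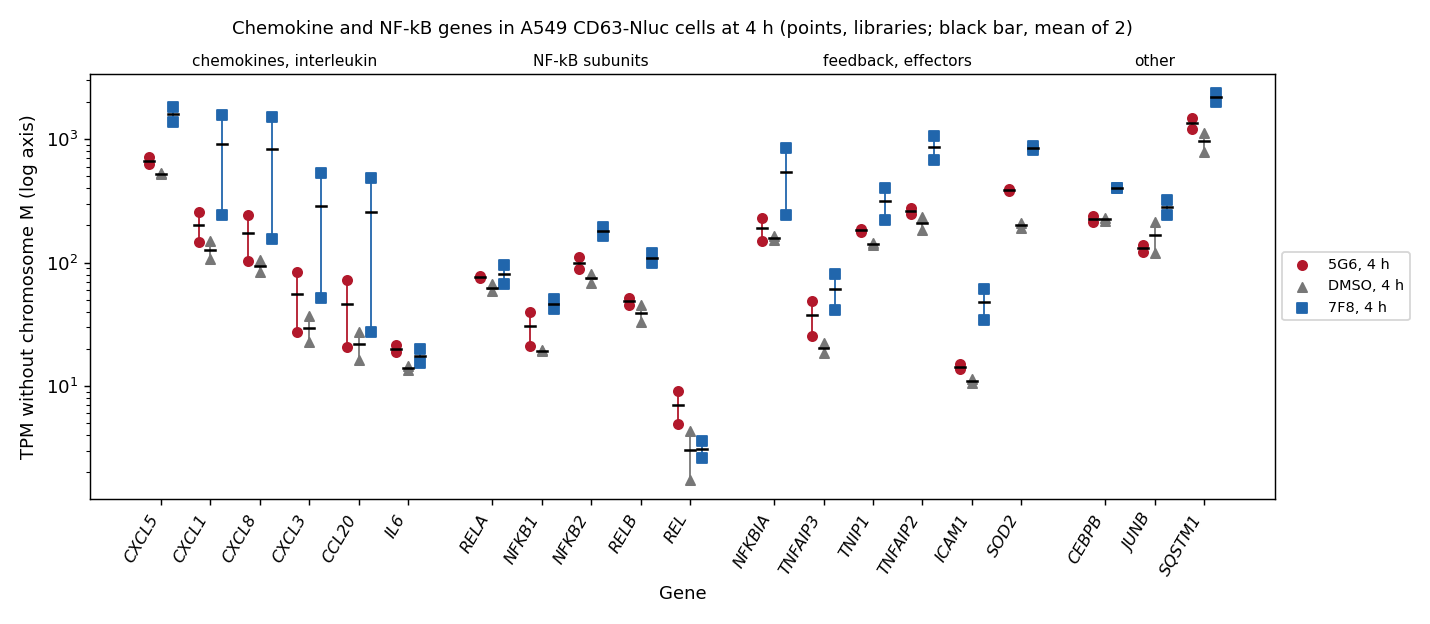
TPM without chromosome M (log axis) of 20 chemokine, NF-kB and related genes in each 5G6, DMSO and 7F8 library at 4 h; points are libraries, black bars the mean of 2. CXCL5, RELB, TNFAIP2, ICAM1 and SOD2 are higher in both 7F8 libraries, while CXCL1, CXCL8, CXCL3, CCL20 and NFKBIA are far higher in 1 of the 2.

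Stress genes of the ATF4 and CHOP group had a median difference toward 5G6. ATF4 is the factor translated when protein synthesis is slowed by stress, and CHOP, encoded by DDIT3, is one of its targets. Of 16 members, 8 were higher with 5G6 without overlap and 2 with 7F8 (4 and 2 after scaling). All genes gave 33.6% and 6.37% (18.7% and 16.5%), so the scaled counts were near those shares. The list's median was 0.69 (0.46), against 0.22 (0.03) over all genes. That median was 0.13 without 5G6 replicate 2, so it rests largely on that library. TRIB3, a pseudokinase that feeds back on ATF4, stood at 508 and 391 TPM with 5G6, 129 and 39.8 TPM with 7F8 and 101 and 98.1 TPM with DMSO. Its difference was 2.62 ± 0.41 (limma adjusted p = 0.127, 95% interval 1.72 to 3.52). CHAC1, which degrades glutathione, stood at 20.0 and 49.1 TPM with 5G6 and 7.89 and 5.32 TPM with 7F8. DDIT3 stood at 75.9 and 187 TPM with 5G6, 22.8 and 68.4 TPM with 7F8 and 31.3 and 64.0 TPM with DMSO. SESN2, an inhibitor of mTORC1 signalling, showed the spread inside 5G6: 6.66 and 30.4 TPM, against 6.53 and 6.48 TPM with 7F8.

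The downstream genes of amino acid synthesis and transport separated less, with 7 of 21 higher with 5G6 and 0 with 7F8 (5 and 3 after scaling), shares like those of all genes. PSPH, which ends serine synthesis, stood at 51.3 and 42.8 TPM with 5G6, 21.1 and 23.5 TPM with 7F8 and 31.0 and 28.4 TPM with DMSO. ASNS, asparagine synthetase, did not separate on the TPM scale at 4 h (7F8 was above after scaling), at 50.1 and 47.5 TPM with 5G6 and 54.3 and 47.2 TPM with 7F8 (interval -0.59 to 0.49). The ATF4 motif TGATGNAA was present in 2.79% of tested genes with a promoter, in 4 of 15 regulators and in 6 of 15 amino acid genes, ASNS and CHAC1 among them.

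Heat shock chaperones were higher with 5G6 in 11 of 22 members and with 7F8 in 0 (7 and 0 after scaling). All genes gave 33.6% and 6.37% (18.7% and 16.5%). The list's median was 0.40 (0.17), against 0.22 (0.03) over all genes. It was 0.69 without 5G6 replicate 1 and 0.26 without 5G6 replicate 2. Both 7F8 libraries were below both DMSO libraries in 11 of 22 members (23.4% of all genes), and both 5G6 libraries in 1 (7.9% of all genes). CHORDC1, an HSP90 cochaperone, stood at 26.2 and 30.8 TPM with 7F8, 38.6 and 76.4 TPM with 5G6 and 56.1 and 52.8 TPM with DMSO. DNAJB1, an HSP40 cochaperone, stood at 140 and 90.9 TPM with 7F8, 186 and 370 TPM with 5G6 and 201 and 125 TPM with DMSO. HSPA1A and HSPA1B, near-identical copies whose reads cannot be assigned with certainty, stood at 439 and 1054 and at 419 and 990 TPM with 5G6 against 321 and 167 and 313 and 161 TPM with 7F8. HSP90AB1 overlapped, with an interval of -0.58 to 0.55.

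Nutrient signalling at the lysosome gave 10 of 17 members higher with 5G6 and 0 with 7F8 (8 and 3 after scaling). In all genes the shares were 33.6% and 6.37% (18.7% and 16.5%), so the scaled 7F8 count was near its share. The list's median was 0.61 (0.45 after scaling, 0.39 without 7F8 replicate 2), and 8 members had an unadjusted limma p below 0.05. FLCN and its partners FNIP1 and FNIP2 regulate the Rag GTPases that recruit mTORC1 and the factors TFEB and TFE3 to lysosomes. FLCN stood at 62.9 and 72.9 TPM with 5G6, 50.03 and 34.7 TPM with 7F8 and 21.6 and 20.9 TPM with DMSO. FNIP1 stood at 20.6 and 27.0 TPM with 5G6, 11.5 and 13.4 TPM with 7F8 and 9.87 and 8.75 TPM with DMSO. Both genes stood in the order 5G6, 7F8, DMSO without overlap. RRAGD, the Rag GTPase known as a TFEB target, stood at 6.43 and 6.17 TPM with 5G6, 1.84 and 2.35 TPM with 7F8 and 1.83 and 2.47 TPM with DMSO, so that only 5G6 was apart from DMSO. PIP4P1, a lysosomal phosphoinositide phosphatase, stood at 112 and 104 TPM with 5G6, 61.0 and 56.7 TPM with 7F8 and 49.2 and 47.6 TPM with DMSO, and differed by 0.87 ± 0.15 (limma adjusted p = 0.154).

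Lysosomal hydrolases and membrane proteins did not follow the same pattern between the compounds. Of 30 members, 9 were higher with 5G6 and 2 with 7F8 (3 and 8 after scaling), against 33.6% and 6.37% of all genes (18.7% and 16.5%). The list's median was 0.21 (-0.02), like all genes. Both compounds lay above DMSO in part of the list, 5G6 in 20 of 30 members (22.6% of all genes) and 7F8 in 11 (10.1% of all genes). NEU1, the lysosomal sialidase, stood at 72.4 and 51.1 TPM with 5G6, 40.2 and 33.5 TPM with 7F8 and 25.7 and 22.9 TPM with DMSO. The TFEB motif TCACGTGA was present in 2.16% of tested genes with a promoter, in 7 of 18 lysosomal genes and in 1 of 14 genes of nutrient signalling (RRAGB).

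The list of AMPK subunits and kinases, which also held SESN1, SESN2, FNIP1 and FNIP2, was not apart as a group. Of 14 members, 6 were higher with 5G6, FNIP1 and FNIP2 among them, and 2 with 7F8 (3 and 4 after scaling). All genes gave 33.6% and 6.37% (18.7% and 16.5%). PRKAA1, the catalytic subunit alpha 1, stood at 28.3 and 36.2 TPM with 5G6 and 29.7 and 31.0 TPM with 7F8 (difference 0.08, 95% interval -0.52 to 0.67). PRKAG2, a nucleotide-binding gamma subunit, stood at 62.2 and 42.6 TPM with 5G6, 36.2 and 26.4 TPM with 7F8 and 47.7 and 41.5 TPM with DMSO. RNA levels give no measure of AMPK activity.

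Among 30 genes of exosome biogenesis and release, 11 were higher with 5G6 and 3 with 7F8 (7 and 10 after scaling). The shares of all genes were 33.6% and 6.37% (18.7% and 16.5%). The 5G6 counts were thus near those shares, and the scaled 7F8 count was above its share. The list's median of 0.07 (-0.17) was below that of all genes. The RAB27 GTPases, which dock the vesicles that release exosomes, were among those higher with 5G6. RAB27B stood at 37.4 and 56.7 TPM with 5G6, 21.7 and 20.7 TPM with 7F8 and 25.9 and 31.3 TPM with DMSO, and RAB27A at 9.39 and 9.69, 4.88 and 6.05, and 6.85 and 8.91 TPM. In both genes 5G6 was above DMSO and 7F8 below it on the TPM scale, and for RAB27A both compounds overlapped DMSO after scaling. CD63 stood at 2018 and 2346 TPM with 5G6, 1695 and 1063 TPM with 7F8 and 1697 and 1406 TPM with DMSO, values that the reporter fusion can contribute to, since the cells carry CD63 as a transgene. CD81, another exosome tetraspanin, had the reverse order, at 260 and 254 TPM with 5G6 and 327 and 328 TPM with 7F8. SDC4, a syndecan, stood at 73.2 and 124 TPM with 5G6 and 124 and 380 TPM with 7F8.

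**Figure D3:**
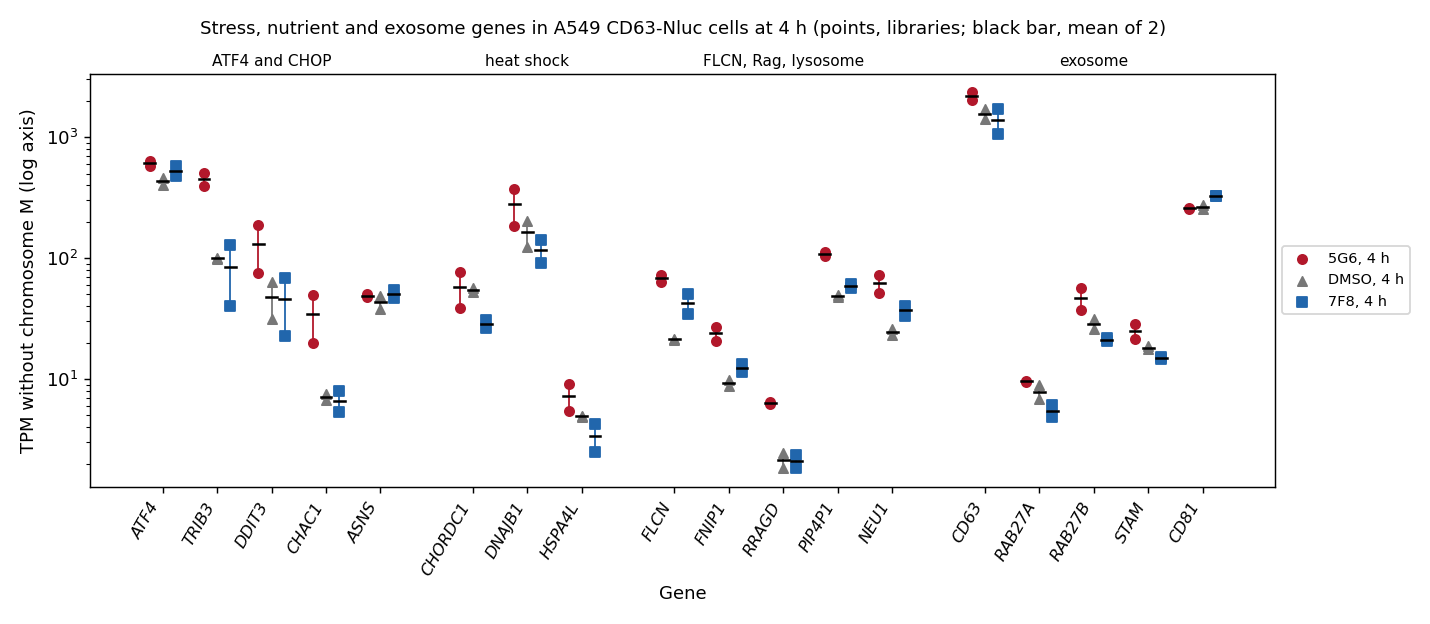
TPM without chromosome M (log axis) of 18 stress, nutrient signalling and exosome genes in each 5G6, DMSO and 7F8 library at 4 h; points are libraries, black bars the mean of 2. TRIB3, RRAGD and RAB27B are higher in both 5G6 libraries than in all 7F8 and DMSO libraries, ASNS overlaps among these 3 groups, and CHORDC1 with 7F8 lies below DMSO.

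Some named genes belonged to none of these lipid, stress or inflammatory lists. UAP1L1, a relative of the enzyme that makes UDP-N-acetylglucosamine, stood at 43.9 and 36.6 TPM with 5G6, 11.5 and 4.64 TPM with 7F8 and 7.25 and 6.33 TPM with DMSO (difference 2.29 ± 0.33, limma adjusted p = 0.110). HAVCR1, a phosphatidylserine receptor, stood at 82.5 and 106 TPM with 5G6, 33.4 and 27.1 TPM with 7F8 and 78.3 and 58.0 TPM with DMSO, where the wider gap was between 7F8 and DMSO. SLC29A2, a nucleoside transporter, stood at 33.7 and 23.3 TPM with 5G6 and 10.9 and 5.36 TPM with 7F8. On the 7F8 side, the linker histone gene H1FX stood at 506 and 553 TPM, against 266 and 254 TPM with 5G6.

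The remaining lists had medians between -0.16 and 0.36 on the TPM scale. Aminoacyl-tRNA synthetases gave 9 of 13 members higher with 5G6 and 0 with 7F8, but 2 and 1 after scaling, and endoplasmic reticulum chaperones 9 of 20 and 0, but 2 and 0. Autophagy genes gave 3 of 19 higher with 5G6 and 7 with 7F8 (1 and 12 after scaling), with a median of -0.11 (-0.35). NRF2 targets gave 3 of 26 members higher with 5G6 and 6 with 7F8 (1 and 13 after scaling), with a median of -0.10 (-0.33). In both the autophagy and the NRF2 list the share higher with 7F8 exceeded that of all genes (6.37%, and 16.5% after scaling). HMOX1, heme oxygenase, spanned 665 and 421 TPM with 5G6 and 827 and 310 TPM with 7F8. DNA replication genes gave 8 of 34 and 0 (3 and 2 after scaling), and mitosis genes 2 of 30 and 0 (0 and 1), against 33.6% and 6.37% of all genes (18.7% and 16.5%). In DNA replication both 7F8 libraries lay below DMSO in 21 of 34 members, against 23.4% of all genes.

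**Figure D4:**
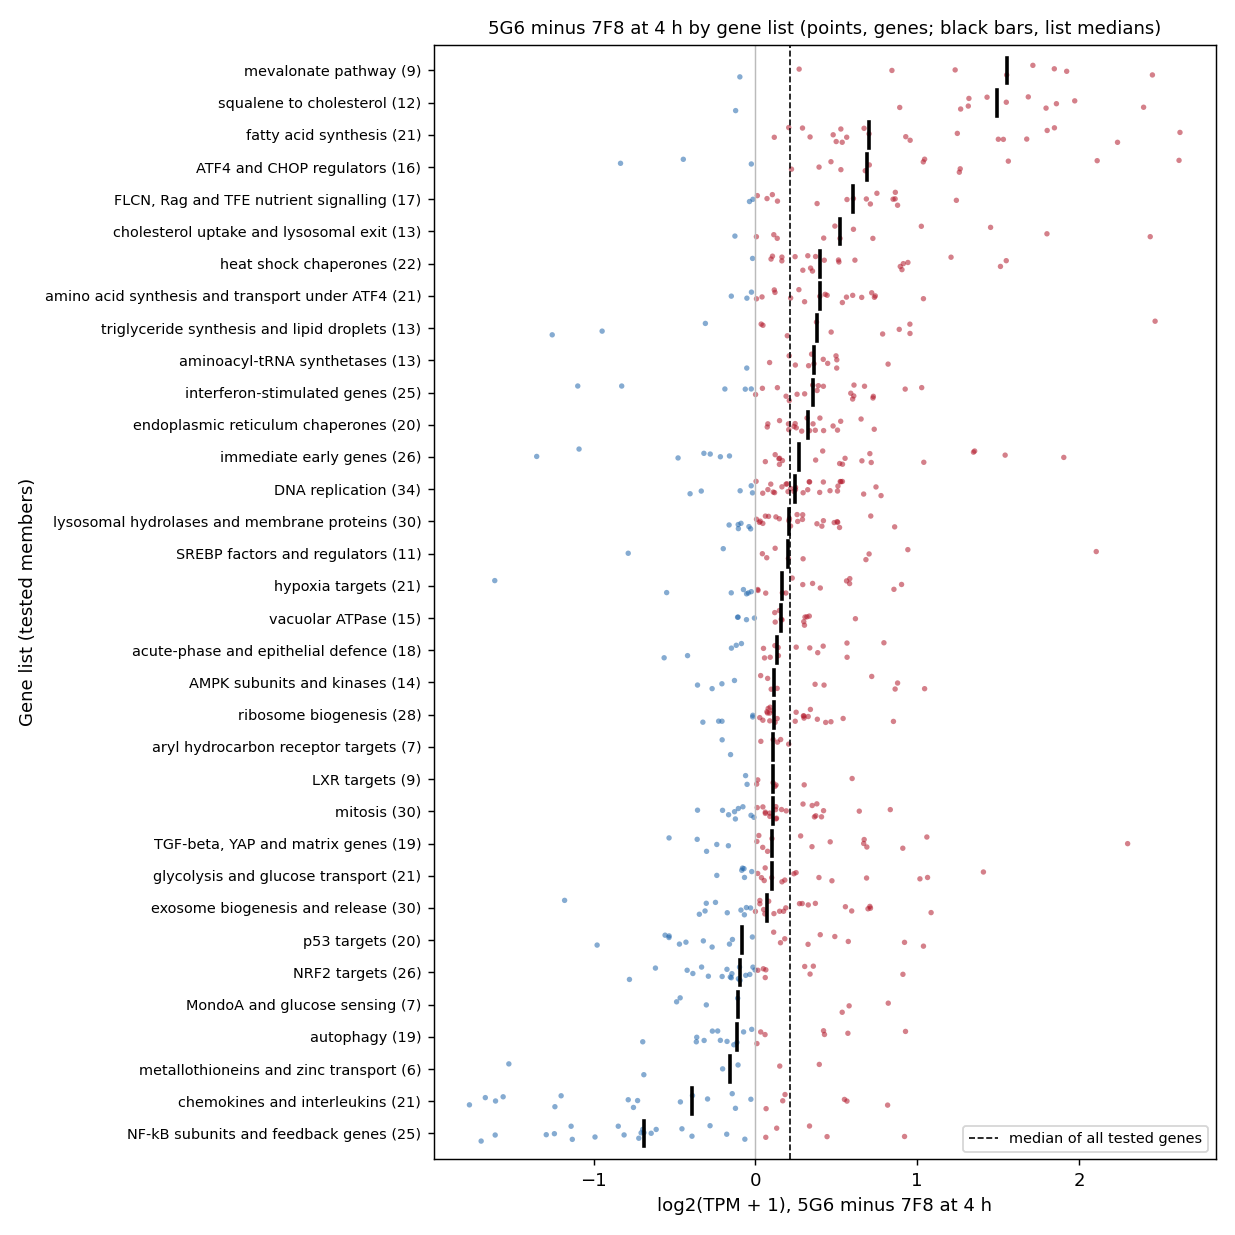
Difference of log2(TPM + 1), 5G6 minus 7F8 at 4 h, of every tested member of 34 gene lists; points are genes, black bars list medians, and the dashed line the median of all tested genes, 0.22. The mevalonate and squalene lists have medians of 1.55 and 1.49, and the NF-kB list lies lowest at -0.69.

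The same compounds were compared at 48 h to see which differences were present at both times. At 48 h limma called 41 genes higher with 5G6 (0.257%) and 5 higher with 7F8 (0.0313%). The test of the difference between the times called 0 genes (0%), with 623 at an unadjusted p below 0.05 (3.9%). Over all 15958 tested genes, 4117 were apart at 48 h with 5G6 higher and 1658 with 7F8 higher. Of 6373 genes whose libraries were apart at 4 h, 2022 were apart in the same direction at 48 h and 486 in the opposite one. Whether 2022 exceeds what the counts at each time alone would give was not tested.

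The lipid lists had medians of the same sign at 48 h. The median difference was 1.79 at 48 h for the mevalonate list, 1.22 for squalene to cholesterol and 1.14 for fatty acid synthesis, against 0.10 over all genes. ELOVL6 stood at 59.0 and 80.1 TPM with 5G6 and 25.6 and 17.0 TPM with 7F8 at 48 h, a difference of 1.67 (limma adjusted p = 0.0431). LPIN1 stood at 92.6 and 123 TPM against 22.8 and 16.04 TPM, and was higher with 5G6 at 48 h (2.42, limma adjusted p = 0.0327). TRIB3 stood at 753 and 706 TPM against 128 and 88.6 TPM, also higher with 5G6 (2.76, limma adjusted p = 0.0327).

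Some genes overlapped between the compounds at 4 h and were apart at 48 h. ASNS stood at 28.6 and 32.3 TPM with 5G6 and 5.97 and 10.02 TPM with 7F8 at 48 h, a difference of 1.84 (limma adjusted p = 0.0327) against -0.05 at 4 h. GDF15, a stress-induced hormone, stood at 488 and 525 TPM with 5G6 and 180 and 164 TPM with 7F8 at 48 h (1.55, limma adjusted p = 0.0327), and at 235 and 270 TPM and 224 and 346 TPM at 4 h. G0S2, apart at both times, was lower with 5G6 at 48 h, at 20.8 and 14.2 TPM against 108 and 66.0 TPM (-2.23, limma adjusted p = 0.0327). The 48 h difference minus the 4 h difference was 1.89 for ASNS, 1.69 for GDF15 and -1.28 for G0S2, with adjusted p of 0.727, 0.844 and 0.999 by limma.

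The reverse, apart at 4 h and overlapping at 48 h, was seen in FNIP1, CHORDC1, MTMR4 and H1FX, whose differences at 48 h were 0.22, -0.25, 0.16 and 0.05. MTMR4, a phosphoinositide phosphatase of endosomes, stood at 17.3 and 23.1 TPM with 5G6 and 6.75 and 4.69 TPM with 7F8 at 4 h, and at 15.99 and 25.2 TPM and 19.5 and 16.3 TPM at 48 h (95% interval -0.54 to 0.86). The list medians of nutrient signalling and heat shock were 0.22 and -0.17 at 48 h. The NF-kB list had a median of -0.24 and the chemokines -1.01 at 48 h. Both inflammatory lists still held members apart at that time. In the NF-kB list 14 of 25 were higher with 7F8 and 1 with 5G6 (11 and 2 at 4 h). Among 21 chemokines and interleukins it was 13 and 2 (6 and 1 at 4 h). Over all 15958 genes at 48 h it was 1658 and 4117. SOD2 stood at 1118 and 965 TPM with 5G6 and 3308 and 2323 TPM with 7F8 at 48 h.

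**Figure D5:**
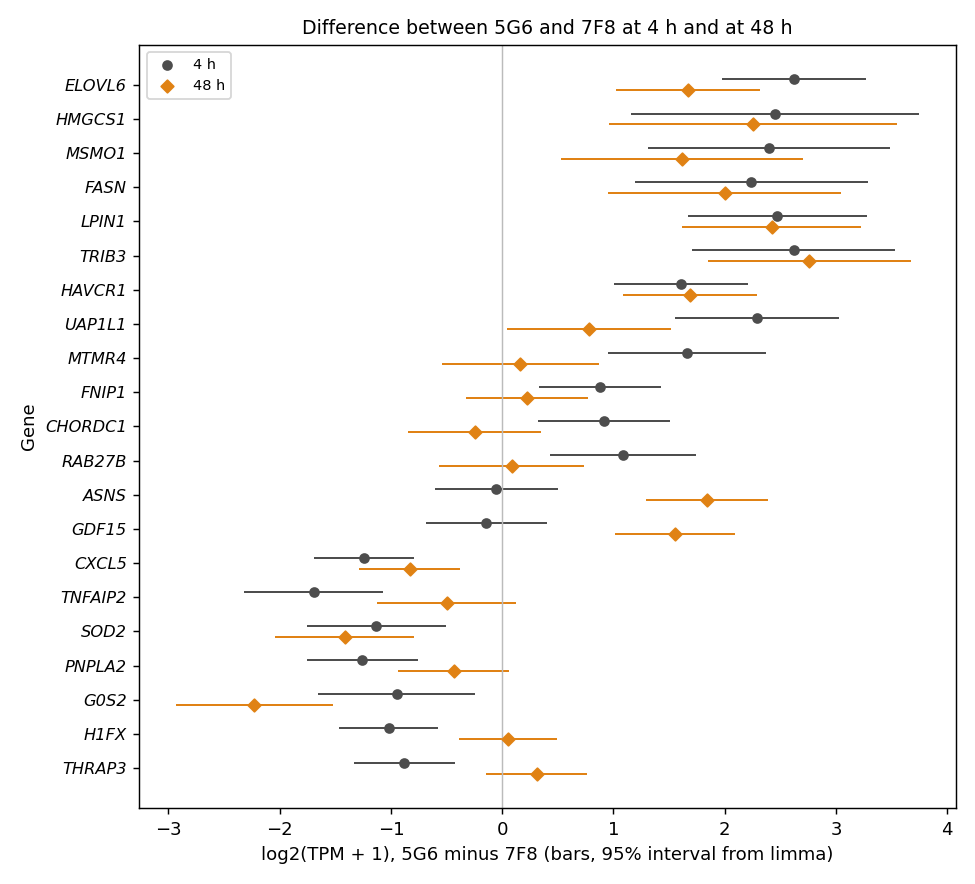
Difference of log2(TPM + 1), 5G6 minus 7F8, for 21 genes at 4 h (circles) and 48 h (diamonds), with 95% intervals from limma. ELOVL6, LPIN1 and TRIB3 lie to the right at both times, ASNS and GDF15 at 48 h but not at 4 h, and H1FX and THRAP3 lie to the left at 4 h and at 0.05 and 0.31 at 48 h.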

How the data were processed

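Polyadenylated RNA of 16 libraries was read from 1 deposited gene abundance table per library. TPM and FPKM values were made by the authors, per the file headers, and coverage is the deposited mean read coverage per gene. Tools named in the submitters' processing notes are STAR 2.6.1a, StringTie 2.0 and featureCounts 1.6.3, with GRCh38, without their roles; strandedness is not given in the sources used here. No read counts were used.

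TPM was summed by gene name, chromosome M dropped, and each library rescaled to 1000000. The test took genes reaching TPM 1 in 2 or more libraries, on log2(TPM + 1), pseudocount 1, with limma 3.58.1 (R 4.3.3): 8 group means, 8 residual degrees of freedom, variance trend, two-sided, Benjamini-Hochberg over 15958 genes, called at 0.05. Coverage with FPKM gave the aligned bases. Replicate cultures are not described further, so p-values cover the spread between libraries, which may be technical. The procedure was tested on simulated data. Python 3.11.15, pandas 2.3.3 and matplotlib 3.10.9 made tables and figures.

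The groups compared and the 34 gene lists were chosen with earlier results of these data known. Named genes were 12 eligible genes in each direction, the 3 of smallest p in each list and a fixed set. The 12 on the 5G6 side included the called gene ELOVL6, and the others were the eligible genes of smallest p. Eligible meant a mean of 5 TPM or more with the higher compound and no overlap of libraries. Not all of them are printed, and some are not reported here. Other genes were named after their values were seen, to show list members by role. Motifs counted any listed start of a gene, a choice made after a search of the first listed start.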

Additional observations from a re-analysis of the deposited data

Results flagged for a closer look

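For the named gene THRAP3, both libraries of one compound lay above both of the other at each time, in opposite directions at 4 h and 48 h. This splicing and transcription cofactor stood at 47.2 and 37.8 TPM with 5G6 and 79.7 and 77.7 TPM with 7F8 at 4 h, and at 63.9 and 63.0 TPM and 42.4 and 61.3 TPM at 48 h. Its difference between the compounds changed by 1.19 on the log2 scale from 4 h to 48 h (limma, unadjusted p = 0.00144, adjusted p = 0.987). The change did not pass the adjusted test.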

How the results depend on the processing

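The settings of the report gave 1 gene higher with 5G6 and 0 higher with 7F8. These counts were 2 and 0 with chromosome M kept, 2 and 0 with FPKM, 2 and 1 with a pseudocount of 0.1, 15 and 4 with no filter, 0 and 0 with the 8 libraries of 4 h alone, and 0 and 0 with the 4 libraries of both compounds alone. A stricter filter (TPM 5), median-of-ratios scaling and variance without the trend each gave 1 and 0. Leaving out 1 library gave 0 to 28 genes higher with 5G6 and 0 to 5 with 7F8. The highest counts came without 7F8 replicate 1, where TRIB3, UAP1L1, CXCL1 and NFKBIA passed (limma, adjusted p = 0.000988, 0.00468, 0.00907 and 0.0330). The lone library left in a group is then assumed to vary like the other groups. A replicate block gave 1 and 0, and together with median-of-ratios scaling, added after seeing the data, 0 and 0. The labels do not say that replicate numbers pair libraries: the correlation of same-numbered deviations was 0.355 for 5G6 and 7F8 at 4 h and above 0.1 in 25 of 28 group pairs. Unadjusted p was below 0.05 in 738 to 2565 genes over these settings and in 1601 with the settings of the report. Of 130 named genes, 117 kept 1 sign under every setting, and of 34 lists, 14. With only the first listed start of each gene, the NF-kB motif was in 6.70% of tested genes, 9 of 16 chemokine and interleukin genes and 10 of 21 NF-kB subunits and feedback genes. The ATF4 motif was then in 1.78% of tested genes, 2 of 15 regulators and 4 of 15 amino acid genes. The sterol motif was in 1.11%, in 1 of 9 SREBP regulators and in 0 of 18 fatty acid genes. The TFEB motif was in 1.86%, in 7 of 18 lysosomal genes and in 1 of 14 genes of nutrient signalling. Groups of 2 libraries, and the spread between the 7F8 libraries, limit what could be called.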
